A study of Mus musculus with 6 samples.

Results

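The miR-29 family was followed in liver from mice of the *Apcfl/fl* or *Apc+/+* genotype by NanoString, an assay that captures each miRNA with its own colour-coded probe and counts the captured molecules without amplification. Its members were taken by name, as every probe for miR-29a, miR-29b or miR-29c, whichever arm of the hairpin it names. This gave 3 probes of the 599 on the panel, of which 566 measure mouse miRNAs and the other 33 miRNAs of viruses that infect mice. The probes were mmu-miR-29a (MIMAT0000535), mmu-miR-29b (MIMAT0000127) and mmu-miR-29c (MIMAT0000536), named without an arm, which in the older nomenclature stands for the main product, now called 3p. No probe named for a 5p arm of these miRNAs was found, so the 5p arms were not measured here. Livers of 3 *Apcfl/fl* mice, homozygous for the hypomorphic Apc580s allele and labelled as carrying HCC, were set against livers of 3 *Apc+/+* mice, labelled as healthy controls. All 6 mice were of the C57Bl/6 strain and RNA came from fresh frozen liver. Age, any treatment, the cells in which the allele lowers Apc and the tumour content of the sampled tissue are not given in the sources used here. This limits the group as a model of tumour cells. These are bulk livers, in which fewer cells of a type and less RNA per cell cannot be told apart.

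The miR-29 miRNAs are known for holding back the extracellular matrix. They bind the mRNAs of collagens, elastin and other matrix proteins, and their level falls when hepatic stellate cells turn into matrix-making cells. They are also known to target the de novo DNA methyltransferases and the survival protein Mcl1. The promoter of one of their genes is repressed by Myc, and Wnt signalling raises their level in osteoblasts.

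The mature sequences are shown because the members share the part that recognises targets and differ only beyond it. They are written 5′ to 3′ from RefSeq (GRCm38.p6), matched for 3 of the 3 probes through the 3p name, with the seed (bases 2 to 8) in capitals.
miR-29a: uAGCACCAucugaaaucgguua
miR-29b: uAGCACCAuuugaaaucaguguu
miR-29c: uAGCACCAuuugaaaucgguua
The seed is the same in all 3, and among the 1679 mature mouse miRNA names of that table no others carry it. MiR-29a and miR-29c differ by a single base, C10U, counted from 1 at the 5′ end of miR-29a. From miR-29b to miR-29c the changes are A18G, G21U and U22A, and miR-29b is 1 base longer, with 23 bases against 22. The 3′ end of miR-29b holds a motif known to direct it to the nucleus. Whether the probes for such close sequences share signal was not tested.

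The family comes from 2 loci, each with a pair of hairpins. Mir29a and Mir29b-1 lie on the minus strand, with 275 bases between them, and give miR-29a at chr6:31062673-31062694 and miR-29b at chr6:31063025-31063047. Mir29b-2 and Mir29c lie on the plus strand, with 426 bases between them, and give miR-29b at chr1:195037091-195037113 and miR-29c at chr1:195037600-195037621. These positions are those of GRCm38.p6, and no build is named for the counts. The mature miR-29b is identical from both loci, so its probe sums both, while the mature miR-29a comes from the first locus and miR-29c from the second.

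Between 82942 and 133331 mouse miRNA counts were obtained per liver, and the miR-29 probes were among the well-counted ones. The probe for miR-29a ranked 8 to 13 by count among the 566 mouse probes, miR-29b ranked 17 to 29 and miR-29c ranked 15 to 24. All counts of the family lay 41.6 to 129 times above the background limit, which is the mean plus 2 SD of the viral probes of the same liver (13.1 to 27.8 counts). The lowest count, 553.33 for miR-29b in *Apcfl/fl* liver 2, has a 95% counting error of 8.33%. This was small beside the 2.58-fold span of the deposited miR-29b counts between livers. Counting error was not small beside every difference. The miR-29a counts of *Apc+/+* livers 2 and 3, 1588 and 1575, differed by less than their 95% counting errors of 4.92% and 4.94%. Ranks, ratios and shares across probes describe counts and not amounts of the miRNAs, since probes may capture their miRNAs with unequal efficiency.

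*Apc+/+* livers 1 to 3 had deposited miR-29a counts of 1699, 1588 and 1575, against 2046, 1284 and 2472 for *Apcfl/fl* livers 1 to 3. The *Apcfl/fl* livers lay on both sides of the *Apc+/+* livers, with liver 2 the lowest and liver 3 the highest of all 6. For miR-29b, *Apc+/+* livers had 1194.33, 970.33 and 722.33 counts, against 1205.33, 553.33 and 1428.33 with *Apcfl/fl*. Again *Apcfl/fl* liver 2 was the lowest and liver 3 the highest. For miR-29c, *Apc+/+* livers had 1236.67, 970.67 and 1072.67 counts, against 1231.67, 1048.67 and 1202.67 with *Apcfl/fl*. These spanned 1.27-fold from the lowest to the highest liver, against 1.93-fold for miR-29a and 2.58-fold for miR-29b, and the genotypes overlapped for all 3 members before scaling.

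Scaling between livers changed this picture, because TMM scaling (edgeR's trimmed mean of log ratios) multiplied library sizes by 0.655 in *Apc+/+* liver 3 and by 1.25 and 1.24 in *Apcfl/fl* livers 1 and 3. After it, *Apc+/+* livers had normalized miR-29a counts of 2144, 1949 and 1935, against 1840, 1360 and 1623 with *Apcfl/fl*. All *Apcfl/fl* livers now lay below all *Apc+/+* livers. For miR-29b, *Apc+/+* livers had 1507, 1191 and 887, against 1084, 586 and 938 with *Apcfl/fl*, and the genotypes still overlapped. For miR-29c, *Apc+/+* livers had 1561, 1192 and 1318, against 1108, 1111 and 790 with *Apcfl/fl*, with no overlap. The lowest liver was not the same for the members: it was *Apcfl/fl* liver 2 for miR-29a and miR-29b and *Apcfl/fl* liver 3 for miR-29c.

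**Figure D1:**
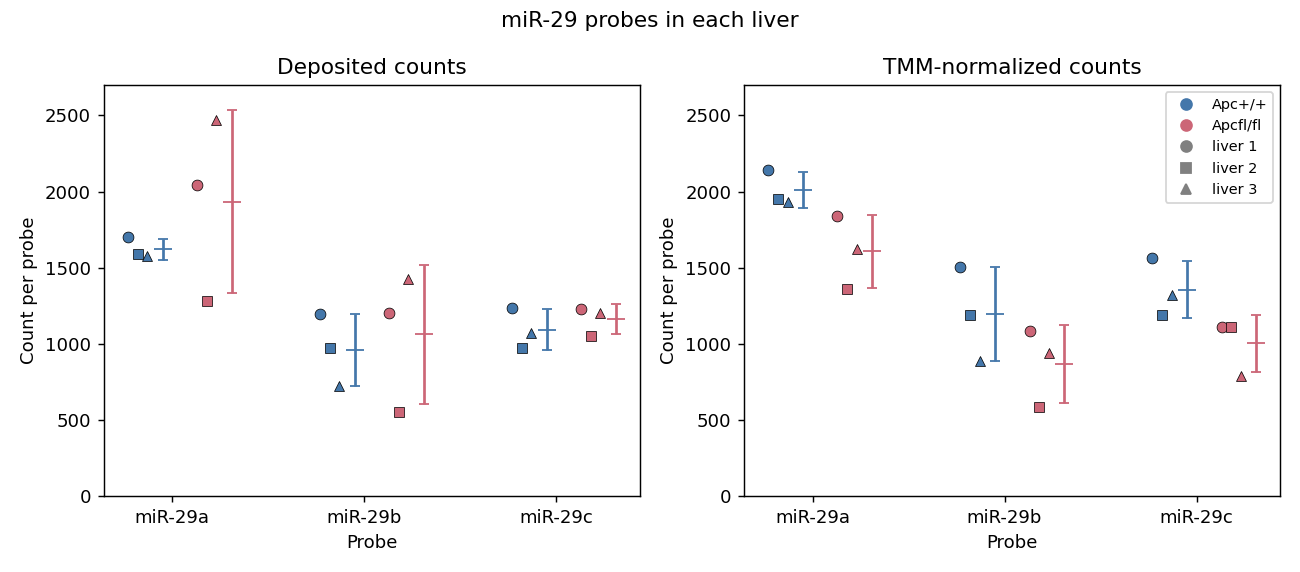
Counts of the 3 miR-29 probes in each liver as deposited (left) and after TMM normalization (right), with the count per probe on the y axis, a point for each liver and the mean ± SD of the 3 livers of a genotype beside it. The genotypes overlap for each probe on the left; on the right the *Apcfl/fl* livers lie below the *Apc+/+* livers for miR-29a and miR-29c and overlap them for miR-29b.

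None of the 3 members changed in edgeR's quasi-likelihood test (adjusted p under 0.05, Benjamini-Hochberg over 174 mouse miRNAs whose mean count reached 20). All had a fitted level below that of *Apc+/+* liver. The normalized miR-29a count averaged 2009 ± 117 for *Apc+/+* against 1608 ± 241 for *Apcfl/fl* (SD, n = 3 each), and edgeR fitted a log2 difference of -0.32 (SE 0.19, adjusted p = 0.33). The averages for miR-29b were 1195 ± 310 and 869 ± 256 (SD, n = 3 each), and edgeR fitted -0.46 (SE 0.30, adjusted p = 0.37). Those for miR-29c were 1357 ± 188 and 1003 ± 185 (SD, n = 3 each), and edgeR fitted -0.44 (SE 0.22, adjusted p = 0.25). In linear terms the fitted levels were 0.80, 0.73 and 0.74 times those of *Apc+/+* liver for miR-29a, miR-29b and miR-29c. A two-sided exact permutation test of the normalized log2 values gave p = 0.1 for miR-29a and miR-29c, the smallest p that 3 mice against 3 allow, and p = 0.3 for miR-29b.

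The 95% confidence intervals show what these livers could and could not resolve. The interval of the fold change ran from 0.589 to 1.09 for miR-29a, from 0.444 to 1.19 for miR-29b and from 0.519 to 1.05 for miR-29c. Equal levels lie inside the interval of each of the 3 members. Under this scaling a level in *Apcfl/fl* liver more than 1.19 times that of *Apc+/+* liver lies outside all 3, while a fall to 0.589 times does not lie below any of them.

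These values were read against all tested miRNAs. At an adjusted p under 0.05 the test called 0 miRNAs lower (0%) and 0 higher, against 19 lower (10.9%) and 24 higher at an unadjusted p under 0.05, where the unadjusted p of the members was 0.13, 0.17 and 0.083. DESeq2 called 9 lower and 20 higher at an adjusted p under 0.05, and limma 3 lower and 1 higher, none of them a miR-29 member. The genotypes did not overlap, with *Apcfl/fl* lower, for 2 of the 3 members and for 32 of the 174 miRNAs (18.4%), and did not overlap in either direction for 33.9% of the 174. The fitted level was below that of *Apc+/+* liver for 3 of the 3 members and for 86 of the 174 (49.4%). The members stood at places 58 (miR-29a), 39 (miR-29b) and 42 (miR-29c) of the 174 when fold changes were ordered from the lowest, and their median log2 fold change was -0.44 beside 0.01 over all tested miRNAs.

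**Figure D2:**
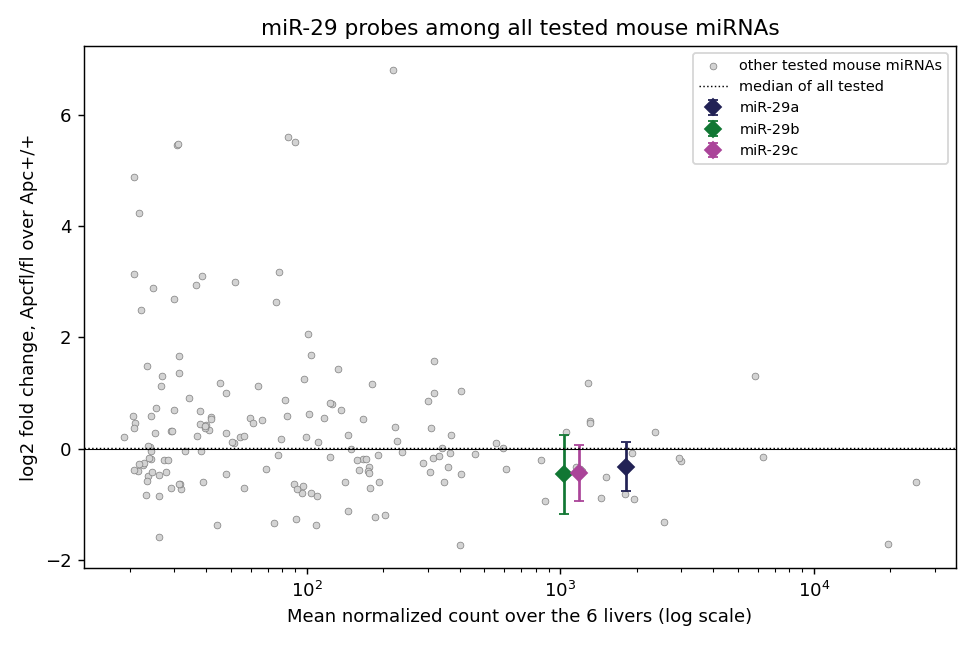
Log2 fold change of *Apcfl/fl* over *Apc+/+* liver against the mean normalized count over the 6 livers (log scale), with a point for each of the 174 tested mouse miRNAs, the miR-29 probes as diamonds with 95% confidence intervals and the median of all tested as a dotted line. The intervals of all 3 miR-29 probes cross 0, and the 3 probes lie among other abundant miRNAs.

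The direction for miR-29a rested on the scaling and on the filter, while miR-29b and miR-29c kept a fitted value below 0 in all 16 alternatives. With the total count as library size the log2 fold change was 0.085 for miR-29a, -0.077 for miR-29b and -0.059 for miR-29c, and the genotypes overlapped for all 3. The median over all 174 was then 0.45, and the members lay below it, at -0.37, -0.53 and -0.51 after its subtraction, against -0.34, -0.47 and -0.45 under TMM scaling. With no filter on low counts, where many probes at the lowest value enter the scaling, the values were 0.091, -0.043 and -0.042, and after subtraction of the median of all probes 0.17, 0.036 and 0.036. Over 8 settings that gave normalized counts, the genotypes were free of overlap for miR-29a only in the setting used here, TMM scaling with the count minimum of 20. For miR-29c they were so in 3 settings, that one and those with DESeq2 size factors and with the top 100 size factor. All 3 members overlapped between the genotypes when TMM scaling was kept and the count minimum was 60, no filter was set or the viral background was subtracted.

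**Figure D3:**
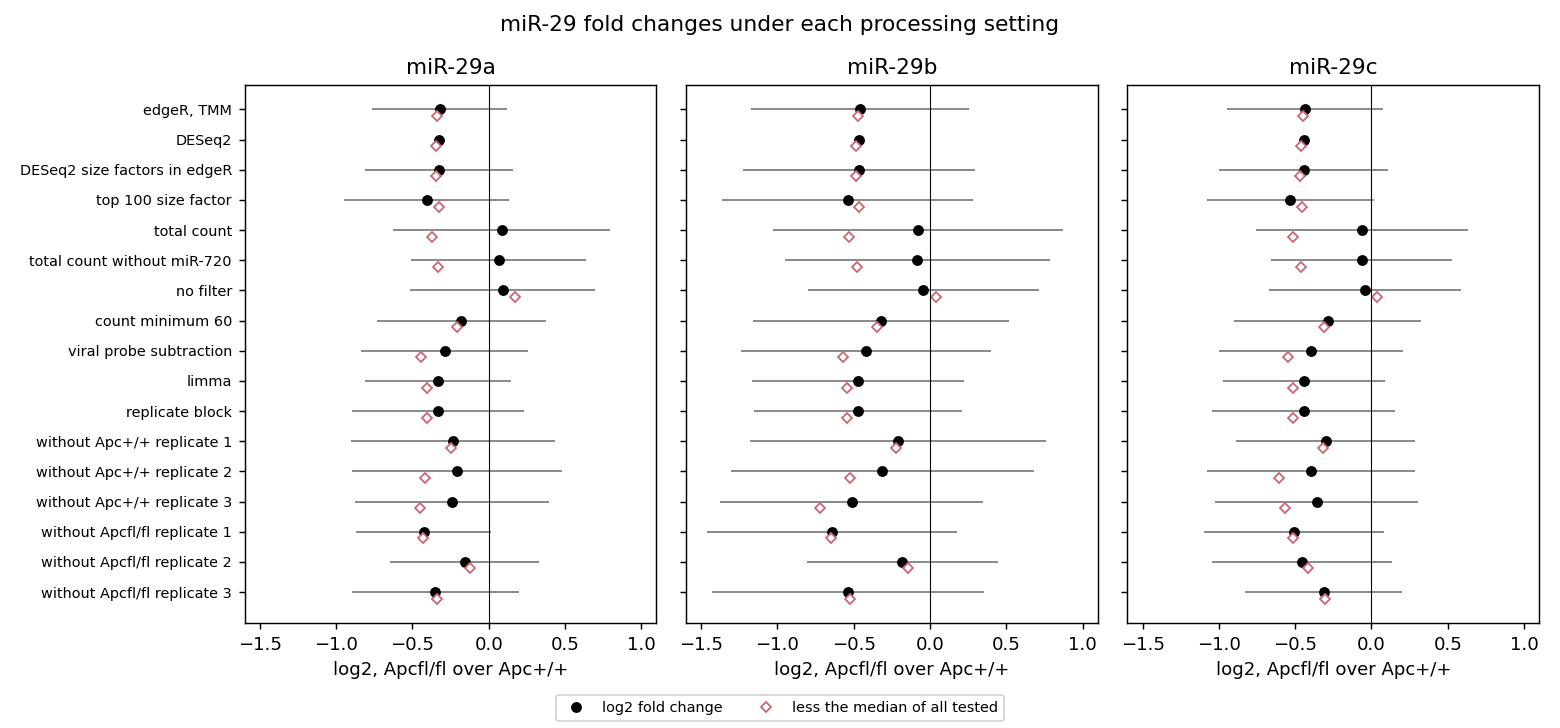
Log2 fold change of *Apcfl/fl* over *Apc+/+* liver (filled circles) for each miR-29 probe under edgeR with TMM scaling and 16 alternatives, with 95% confidence intervals as bars (none was computed for DESeq2), and the same less the median of all tested miRNAs (open diamonds). MiR-29a lies at 0.085, 0.067 and 0.091 with the total count, the total count without miR-720 and no filter, and below 0 elsewhere; with no filter the open diamonds lie above 0.

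The spread between livers differed among the members. The SD of the normalized log2 values within a genotype, pooled over both genotypes, was 0.17 for miR-29a, lower than in all but 5.17% of the tested miRNAs. It was 0.24 for miR-29c, at the 14.9 percentile, and 0.42 for miR-29b, at the 42 percentile, where the median over all tested miRNAs was 0.48. These percentiles were taken over mean counts from 20 up and were not matched for abundance, so they do not set miR-29 apart from other abundant miRNAs. The more variable miR-29b thus carried the widest interval. *Apcfl/fl* liver 2 weighed most on miR-29a and miR-29b: without it their log2 fold changes were -0.16 and -0.18, against -0.32 and -0.46 with all livers. Without *Apc+/+* liver 2 the value for miR-29a was -0.21, but the scaling was refitted without that liver. The median over all tested miRNAs was then 0.21. Less that median, miR-29a lay at -0.42, against -0.34 with all livers. Without *Apc+/+* liver 1, which held the highest normalized count of each member, the value for miR-29b was -0.21.

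Ratios of members within a liver do not depend on the scaling between livers, and the ratio of miR-29a to miR-29c sets a product of the first locus against one of the second, as far as their probes tell them apart. *Apc+/+* livers had ratios of deposited counts of 1.37, 1.64 and 1.47, against 1.66, 1.22 and 2.06 with *Apcfl/fl*. *Apcfl/fl* livers 2 and 3 were the lowest and the highest of the 6, so the genotypes overlapped. On the log2 scale (pseudocount 0.5) the mean was 0.57 ± 0.13 for *Apc+/+* against 0.69 ± 0.38 for *Apcfl/fl* (SD, n = 3 each), a difference of 0.11 within the spread between livers (two-sided exact permutation test, p = 0.6).

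For miR-29a over miR-29b, *Apc+/+* livers had ratios of 1.42, 1.64 and 2.18, against 1.70, 2.32 and 1.73 with *Apcfl/fl*. The genotypes overlapped, with a log2 difference of 0.14 (two-sided exact permutation test, p = 0.5, n = 3 in each genotype). The ratio of miR-29b to miR-29c was close to 1 in 3 livers, at 0.966 for *Apc+/+* liver 1, 0.979 for *Apcfl/fl* liver 1 and 970.33 counts over 970.67 for *Apc+/+* liver 2. It was 0.673 in *Apc+/+* liver 3, and 0.528 and 1.19 in *Apcfl/fl* livers 2 and 3. The log2 difference between the genotypes was -0.028 (two-sided exact permutation test, p = 0.9, n = 3 in each genotype). In these 3 comparisons no ratio differed beyond the spread between livers, and at this number of mice no p under 0.1 was possible.

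Over the family, miR-29a made up 44.3% ± 2.87 of the counts of the 3 probes for *Apc+/+* against 46.2% ± 2.03 for *Apcfl/fl* (SD, n = 3 each). The share of miR-29c was 29.8% ± 2.17 and 29.1% ± 6.54, and that of miR-29b 25.9% ± 3.97 and 24.7% ± 4.80 (SD, n = 3 in each genotype). The mean makeup of the family was therefore close between genotypes, while the share of miR-29c spread more in *Apcfl/fl* liver, a difference in spread that was not tested.

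**Figure D4:**
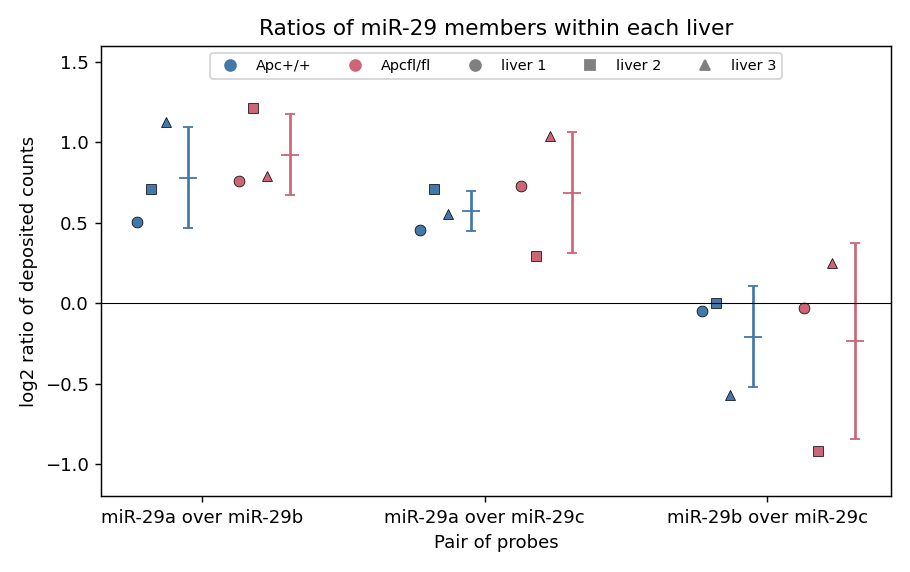
Log2 ratios of the deposited counts of each pair of miR-29 probes within a liver, with a point for each liver and the mean ± SD of the 3 livers of a genotype beside it. The genotypes overlap for all 3 ratios, and *Apcfl/fl* liver 2 lies lowest and *Apcfl/fl* liver 3 highest for both ratios over miR-29c.

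The tested miRNAs most like the mean of the miR-29 probes over the 6 livers were miR-99a (Pearson's r = 0.93), miR-101a (r = 0.92) and miR-203 (r = 0.87). The measure was taken on normalized log2 values over 171 other miRNAs, and all values of a liver share its library and scaling. MiR-101a is a miRNA known to target the histone methyltransferase Ezh2. Its normalized counts were 151, 119 and 94.6 with *Apc+/+*, against 73.8, 58.3 and 77.5 with *Apcfl/fl*, and edgeR fitted -0.80 (SE 0.31, adjusted p = 0.16). Those of miR-99a were 212, 199 and 198 with *Apc+/+*, against 185, 131 and 134 with *Apcfl/fl*. Those of miR-203 were 153, 136 and 106 with *Apc+/+*, against 76.5, 62.5 and 88.6 with *Apcfl/fl*. For these 3 the genotypes did not overlap, and *Apc+/+* liver 1 was the highest, as it was for each miR-29 member. They were picked for following the miR-29 mean over the same livers, so both traits come in part with that choice. Over all 174 tested miRNAs the genotypes did not overlap, with *Apcfl/fl* lower, for 18.4%.

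Other miRNAs of the matrix and chromatin pathways in which miR-29 works were described from lists written from general knowledge. None of their members passed the adjusted test, as none of all 174 tested miRNAs did. Of the miRNAs reported to restrain stellate cells or collagen, 6 of 7 probes were tested, 5 with a fitted level below and 1 above that of *Apc+/+* liver, with a median log2 fold change of -0.61 beside 0.01 over all tested. The 3 with the smallest p-values were miR-122, the main hepatocyte miRNA (-1.71, standard error 0.34), miR-19b (-0.71, standard error 0.25) and miR-30c (-0.85, standard error 0.30). Of the miRNAs reported to promote stellate cell activation, 10 of 13 probes were tested, 4 below and 6 above, with a median of 0.23. Here miR-21 had a log2 fold change of 1.31, miR-125b-5p of -0.95 and miR-199a-5p of -0.72. Among those above, miR-222 had 16, 16 and 15 deposited counts with *Apc+/+* and reached the count minimum only through the *Apcfl/fl* livers. The miRNAs reported to lower DNA methyltransferases or Ezh2 had 10 of 11 probes tested, 7 below and 3 above, with a median of -0.17. Within that list miR-148a (-1.31) and miR-143 (-1.13) lay below and miR-148b (1.26) above. The miRNAs reported to be repressed by Myc had 22 of 23 probes tested, 14 below and 8 above, with a median of -0.11. Among them let-7g (-0.90) and let-7a (-0.82) lay below and let-7i (1.04) above.

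**Figure D5:**
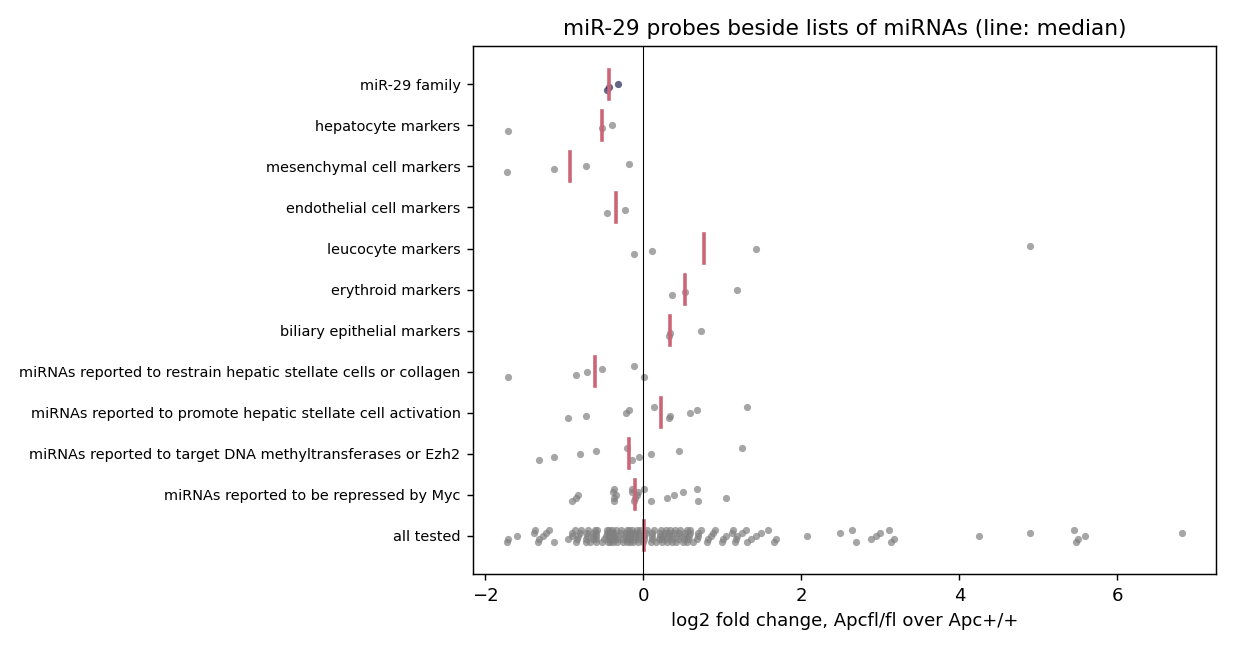
Log2 fold change of *Apcfl/fl* over *Apc+/+* liver for the 3 miR-29 probes, the tested members of 10 lists and all 174 tested miRNAs, with a point for each probe and a line at the median of each row. The miR-29 probes lie close together around their median of -0.44, while the members of the other lists are spread more widely. The rows differ in their number of probes, and the difference in spread was not tested.

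Markers of liver cell types were read beside these values. The tissue label was borne out by miR-122, with 6688 to 29686 deposited counts in the 6 livers. The 3 hepatocyte markers were all tested and all had a fitted level below that of *Apc+/+* liver. Their summed normalized count was 24535 to 39607 for *Apc+/+* against 8151 to 13945 for *Apcfl/fl*. Most of that sum was miR-122, with a mean of 29867 for *Apc+/+* and 9157 for *Apcfl/fl*. The hepatocyte markers miR-192 (-0.39, standard error 0.18) and miR-194 (-0.52, standard error 0.19) had log2 fold changes of a size near those of the miR-29 members, while that of miR-122 was -1.71. Of 5 mesenchymal markers 4 were tested, all below, with miR-145 at -1.72, miR-143 at -1.13 and miR-199a-5p at -0.72. The other arm, miR-199a-3p, was at -0.18 (standard error 0.40), and its genotypes overlapped. The summed count of the mesenchymal markers was 894 to 1318 for *Apc+/+* against 322 to 725 for *Apcfl/fl*. Both endothelial probes were below (-0.46 for miR-126-5p and -0.23 for miR-126-3p), with sums of 3585 to 3807 and 2764 to 3552. Deposited miR-126-3p counts overlapped, at 2622.67, 2659.67 and 2503.67 with *Apc+/+* against 2751.67, 2427.67 and 4845.67 with *Apcfl/fl*.

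The blood and biliary markers did not share this direction. Of 5 leucocyte probes 4 were tested, 3 above and 1 below, with sums of 172 to 369 for *Apc+/+* against 243 to 637 for *Apcfl/fl*. MiR-223 was at 1.43, miR-142-3p at 0.12 (standard error 0.48) and miR-150 at -0.11 (standard error 0.61). The genotypes overlapped for miR-142-3p and miR-150. Among the leucocyte probes miR-142-5p stood at the lowest value of 1 in all 6 livers, and miR-155 did so in every liver but *Apcfl/fl* livers 2 and 3. MiR-155 thus reached the count minimum only through those livers, and its place among those above follows from the filter. The 3 erythroid markers all had a fitted level above that of *Apc+/+* liver, with miR-451 at 1.18 and sums of 856 to 1404 for *Apc+/+*. The *Apcfl/fl* sums were 796, 4561 and 1199, so liver 2, which also weighed most on miR-29a and miR-29b, stood apart, while liver 1 lay below and liver 3 within the *Apc+/+* range. Of 5 biliary epithelial markers 3 were tested, all with a fitted level above, with sums of 73.6 to 142 for *Apc+/+*. The *Apcfl/fl* sums were 72.3, 213 and 93.5, again with liver 2 alone above the *Apc+/+* range. Among the biliary markers miR-429 reached the count minimum only through the *Apcfl/fl* livers. Its deposited counts were 7.67, 21.67 and 15.67 with *Apc+/+*, against 12.67, 55.67 and 36.67. None of these markers passed the adjusted test, as none of all 174 tested miRNAs did. The part of the markers in the miR-29 values was not tested. The fold changes of markers and lists are given under TMM scaling alone. With the total count the median over all tested miRNAs was 0.45 in place of 0.01, so small values below 0 depend on the scaling.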

How the data were processed

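NanoString miRNA counts of 3 *Apcfl/fl* and 3 *Apc+/+* livers were analysed, with genotype and replicate number from the sample titles. The authors deposited estimated counts per probe, not scaled between samples. In 584 of 584 probes the values above 1 shared a decimal part, so a constant of each probe had been subtracted, and 446 of 3594 values stood at the lowest value of 1. Neither step is stated in the sources used here. Every value column belonged to 1 liver.

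Counts were rounded and mouse miRNAs whose mean count reached 20 were compared in R 4.3.3 with edgeR 4.0.16 (TMM, quasi-likelihood test, Benjamini-Hochberg; log values had a prior count of 2). Viral probes were left out of library sizes and tests. Chi-square tests between livers of one genotype gave 17.2 to 89.1 per degree of freedom, where sampling noise alone gives about 1, and no liver was treated as a duplicate. Within a genotype the labels tell the mice apart only by replicate number, and p-values measure the spread between these livers. Counting errors cover counting alone.

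The planned tests assumed counts, and the estimated counts were rounded for them. Alternatives were DESeq2 1.42.0, limma 3.58.1, other scalings and filters, viral probe subtraction, the replicate number as a block and leaving out each liver. Named miRNAs were the miR-29 probes, the 3 miRNAs most like them over the livers, the 3 with the smallest p-value in each list, and the marker lists. The members and lists were chosen with earlier results of these data known. The procedure was tested on simulated data whose changes were larger than those fitted for the miR-29 members. Recovery of changes as small as theirs was not tested.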

Additional observations from a re-analysis of the deposited data

How the results depend on the processing

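Under 16 alternatives no miR-29 member reached an adjusted p-value under 0.05 (0.21 to 0.94 for miR-29a, 0.27 to 0.97 for miR-29b and 0.20 to 0.97 for miR-29c), and miR-29b and miR-29c had a log2 fold change below 0 in all of them. MiR-29a was above 0 with the total count (0.085), the total count leaving out miR-720 (0.067) and no filter (0.091). With 1 liver left out it ranged from -0.42 to -0.16, miR-29b from -0.64 to -0.18 and miR-29c from -0.51 to -0.30. The log2 ratios ranged from -0.0038 to 0.31 for miR-29a over miR-29b, from -0.062 to 0.31 for miR-29a over miR-29c and from -0.27 to 0.32 for miR-29b over miR-29c with 1 liver left out, so that their signs rest on single livers, among them *Apcfl/fl* livers 2 and 3. Viral probe subtraction and pseudocounts of 0 and 5 left the signs of the ratios as they were.

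The number of miRNAs called at an adjusted p-value under 0.05, 0 with edgeR, TMM scaling and the count minimum of 20, was 29 with DESeq2 (9 lower and 20 higher), 4 with DESeq2 size factors in edgeR, 4 with the top 100 size factor, 17 with the total count (1 and 16), 21 when miR-720 was left out of that total (3 and 18), 18 with the count minimum of 60, 19 with viral probe subtraction (7 and 12), 4 with limma and 7 with the replicate block. It was 0 with no filter and 0 to 19 with 1 liver left out, highest without *Apcfl/fl* replicate 3. The cause was not tested.

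Replicate numbers were not taken as pairs (correlations of -0.06, -0.06 and 0.12 between same-numbered livers, and not every liver correlated best with its own number). With the replicate block the log2 fold changes were -0.33, -0.47 and -0.45, and the adjusted p-values of the members stayed above 0.05. Counting error was at most 8.33% for a miR-29 count.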
